A study of Mus musculus with 6 samples.

Results

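The genes described here are 39 genes that act in the G2 phase of the cell cycle and in mitosis, read in a sorted marrow population rich in stem and progenitor cells, from mice with and without Raptor (gene Rptor), the subunit that defines the kinase complex mTORC1. The list was given by name, and a gene was measured where the annotation table holds a probe set that names it alone, with the probe set of highest mean over all 6 arrays taken for each. This gave 38 members among 18193 genes. Ccnb1, which encodes cyclin B1, had no such probe set in the table and is not analysed here.

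RNA came from flow-sorted marrow cells positive for Sca1 and cKit that lacked Flt3 and the lineage markers, from C57BL/6 mice in which both Raptor alleles carried loxP sites around exon 6. The 3 Raptor mutant arrays came from mice that also carried the MxCre transgene, whose promoter responds to interferon in many cell types and not in blood cells alone. The 3 wild type arrays came from mice without it, which kept the floxed alleles. Mice of both groups received pIpC, an inducer of interferon, at 15 micrograms per g body weight over 5 days, and cells were sorted 5 weeks later. Age and sex are not given. The labels do not tie an array to a single animal, so the spread behind the p-values is that between arrays and can include technical variation.

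Passage through mitosis is driven by the kinase Cdk1 with its A and B type cyclins, and ended by the anaphase-promoting complex, a ubiquitin ligase that marks cyclin B and securin for destruction. In between, Polo and Aurora kinases build the spindle, the kinetochore joins chromosomes to microtubules, checkpoint kinases hold back anaphase until all are joined, and kinesins with their partners divide the cell. Most of these genes are silent in resting cells and are switched on together late in the cycle by the MuvB complex with B-Myb and Foxm1, through a promoter element called the cell cycle genes homology region, often beside boxes for the factor NF-Y. Long-term stem cells of the marrow divide rarely, while the progenitors of the same gate divide often, so messenger RNA of these genes in a sorted pool reflects the share of dividing cells as well as the level within them. In such bulk samples fewer dividing cells and less RNA per dividing cell cannot be told apart.

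The promoters of the members were searched for the elements named above. These are known from genes of this programme, so a higher share than over all windows is not an independent finding. RefSeq start sites on GRCm38.p6 gave 34 windows for 32 of the 39 listed genes, each from 250 bases before to 50 bases after the start. Nek6 and Prc1 were counted once per start site, in windows that overlap. The motifs searched on both strands were CCAAT, the NF-Y box, and TTTGAA or TTTAAA, forms of the cell cycle genes homology region. Other forms of that region, such as TTCGAA, were not searched. The motifs TTTGAA and TTTAAA were counted once per window where both occurred, and CCAAT on opposite strands may overlap, as it does in the Ube2c window. At least 1 CCAAT stood in 25 of 34 member windows (73.5%), against 37.4% of the 32851 windows of the table. TTTGAA or TTTAAA stood in 27 member windows (79.4%) against 27.6% of all, and both kinds in 22 (64.7%) against 10.7%. Between 50 bases before and 50 after the start, TTTGAA or TTTAAA began in 23 member windows (67.6%) and in 8.28% of all windows. Member windows were also richer in G and C, with a median of 61.3% against 52.7%. These shares are descriptions, and a match is not a binding site.

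The windows below show the member that rose in mutant arrays (Nek6), the members with the next highest and the lowest log2 fold change (Hmmr and Ckap2), and a pair whose groups overlapped and which carry the element in a common arrangement (Ccnb2 and Cdk1). Letters run 5′ to 3′ on the gene's strand, and capitals mark the NF-Y box and both forms of the homology region on either strand.
Nek6 (chr2:38511447-38511746, plus strand): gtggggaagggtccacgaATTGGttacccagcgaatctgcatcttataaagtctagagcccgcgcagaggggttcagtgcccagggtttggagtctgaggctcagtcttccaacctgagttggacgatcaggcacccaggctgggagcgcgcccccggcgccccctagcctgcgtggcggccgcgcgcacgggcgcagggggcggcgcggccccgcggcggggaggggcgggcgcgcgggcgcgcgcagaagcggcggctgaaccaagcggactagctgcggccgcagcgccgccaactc
Hmmr (chr11:40733388-40733687, minus strand): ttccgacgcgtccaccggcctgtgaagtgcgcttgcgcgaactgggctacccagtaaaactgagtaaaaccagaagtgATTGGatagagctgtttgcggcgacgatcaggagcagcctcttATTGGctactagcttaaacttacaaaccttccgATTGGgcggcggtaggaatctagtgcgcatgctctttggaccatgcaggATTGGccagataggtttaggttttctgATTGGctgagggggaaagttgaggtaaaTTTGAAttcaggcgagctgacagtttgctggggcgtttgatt
Ckap2 (chr8:22185770-22186069, minus strand): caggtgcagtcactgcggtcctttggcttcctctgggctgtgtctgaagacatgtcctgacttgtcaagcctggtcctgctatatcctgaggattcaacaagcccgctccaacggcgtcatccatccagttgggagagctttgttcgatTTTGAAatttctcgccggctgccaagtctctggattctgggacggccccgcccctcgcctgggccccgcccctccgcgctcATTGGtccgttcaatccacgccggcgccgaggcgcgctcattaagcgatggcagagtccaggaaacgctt
Ccnb2 (chr9:70421505-70421804, minus strand): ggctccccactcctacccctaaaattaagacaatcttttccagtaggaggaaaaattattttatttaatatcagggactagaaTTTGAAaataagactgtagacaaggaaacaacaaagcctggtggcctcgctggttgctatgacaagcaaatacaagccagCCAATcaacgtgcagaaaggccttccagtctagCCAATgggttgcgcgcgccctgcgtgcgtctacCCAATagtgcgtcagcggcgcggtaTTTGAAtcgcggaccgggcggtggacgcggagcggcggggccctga
Cdk1 (chr10:69352863-69353162, minus strand): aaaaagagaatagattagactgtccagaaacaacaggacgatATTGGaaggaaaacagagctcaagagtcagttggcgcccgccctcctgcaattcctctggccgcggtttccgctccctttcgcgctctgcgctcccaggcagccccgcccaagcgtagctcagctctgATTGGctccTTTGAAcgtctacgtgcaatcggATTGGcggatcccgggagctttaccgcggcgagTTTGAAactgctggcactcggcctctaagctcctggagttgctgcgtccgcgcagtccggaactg
In the Ccnb2 window 3 CCAAT boxes began 87, 54 and 21 bases before the start, 33 bases apart, with TTTGAA from base 5 after it. The Cdk1 window held 3 boxes in reverse, the nearer pair 32 bases apart, and TTTGAA 15 bases before the start. The Hmmr window held 5 boxes and TTTGAA from base 9. The Nek6 window held 1 box, 232 bases before the start, and neither TTTGAA nor TTTAAA. The window of its second start site held none of the 3 motifs. The other member windows without TTTGAA or TTTAAA were those of Nuf2, Nusap1, Bub1, Cdc25b and Melk. Those of Bub1 and Cdc25b hold TTCGAA, a form that was not counted.

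Some facts of the arrays bear on every value. The median log2 signal of an array was 6.85 to 6.94. Y-linked Eif2s3y and Kdm5d gave 9.53 to 10.81 on wild type arrays 2 and 3, whereas wild type array 1 and the 3 mutant arrays had 3.60 to 4.53, so comparisons among arrays without Y-linked signal rest on wild type array 1. Rptor itself had a log2 signal of 8.57, 8.17 and 7.59 on wild type and 8.68, 7.99 and 8.33 on mutant arrays (log2 fold change 0.22 ± 0.29 SE, limma adjusted p = 0.77), and since the position of its probes with respect to exon 6 was not analysed here, it does not check the deletion. Of the sort markers, Kit stood at 10.71 to 11.17 on all 6 arrays, while Ly6a (Sca1) was not measured by a probe set of its own. Flt3, for which the cells were sorted as negative, gave 9.51 to 10.79, above the array medians.

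Of the 38 members, 1 rose and 0 fell in mutant arrays by limma at an adjusted p under 0.05, with p adjusted over all 18193 genes, of which 0.110% were called. The member that rose was Nek6. A further pair, Hmmr and Aurkb, had an unadjusted p under 0.05, so that 3 of 38 members (7.89%) lay under that mark, against 10.0% of all genes. The other 37 members had log2 fold changes from -0.38 (Ckap2) to 0.54 (Hmmr). For 35 of the 38 the 95% interval of limma lay inside a 2-fold change in either direction, and for 12 inside a 1.5-fold change, with 80.2% of all genes inside the wider bound. The exceptions to the wider bound were Nek6, Cdc25c and Tpx2. In 30 of 38 members leaving out some 1 array changed the sign or moved the log2 fold change by over 1.5 times. The 8 others were Nek6, Hmmr, Aurkb, Bub1b, Ccna2, Kif11, Ube2c and Ckap2. Leaving out both arrays with Y-linked signal changed the sign or moved the value that far in 20. The measure is a ratio, which a small log2 fold change exceeds at a small shift, and it was not counted over all genes.

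**Figure D1:**
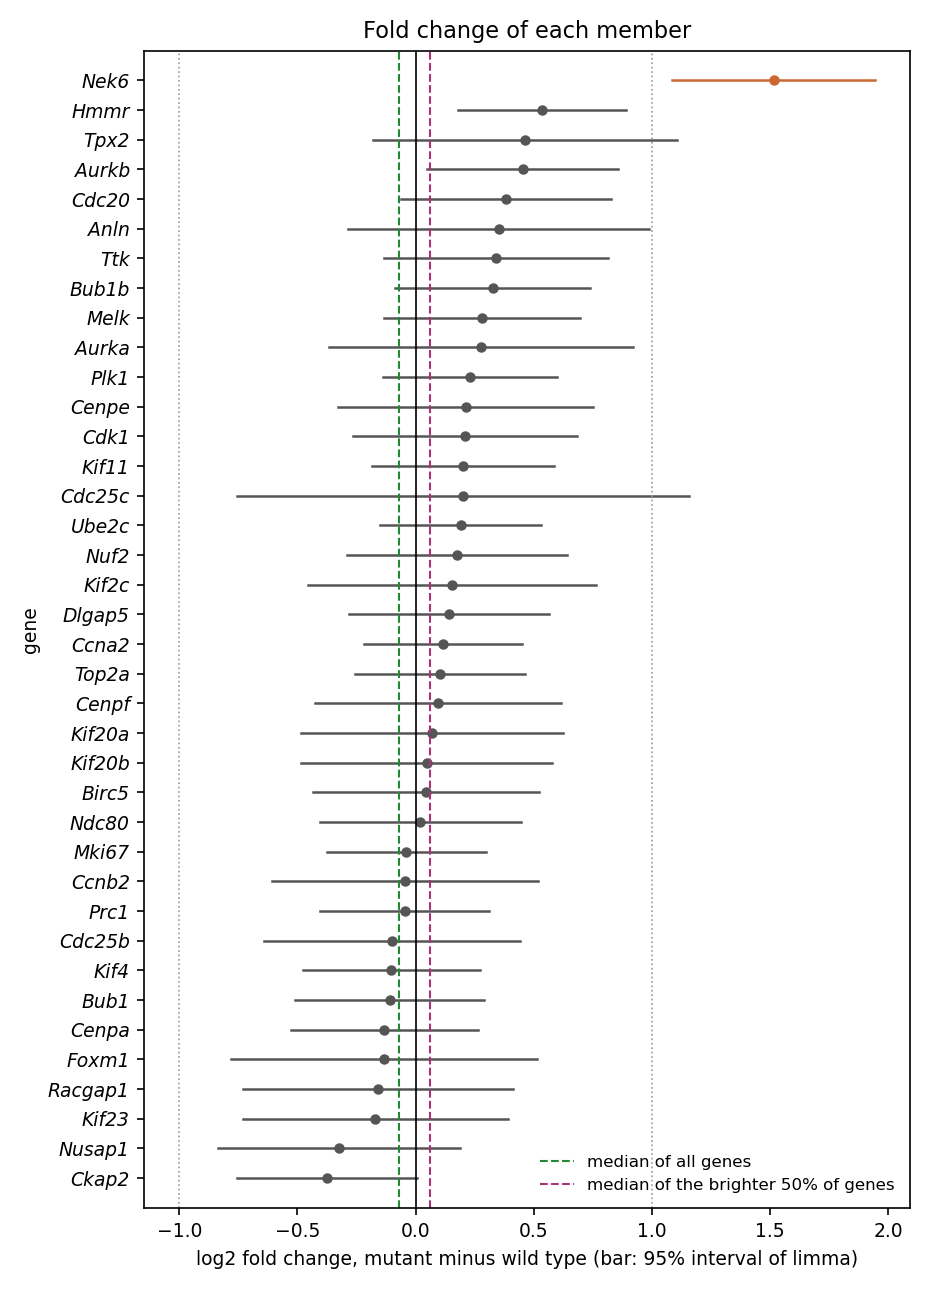
Log2 fold change of the 38 members, mutant minus wild type, with the 95% interval of limma as a bar, 3 arrays per group. Dotted lines mark a 2-fold change, and dashed lines the median over all genes (-0.07) and over the brighter 50% of genes (0.06). Nek6, at 1.51, is the only member past the test and lies apart from the others, whose points run from -0.38 to 0.54.

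Positive log2 fold changes were found in 26 of 38 members (68.4%), against 40.4% of all genes, and the median was 0.13 against -0.07. Without Nek6 the median of the other 37 was 0.12. All 38 members were among the brighter 50% of genes by mean signal, where 58.5% of genes were positive and the median was 0.06. Applying quantile normalization again left 24 positive members and a median of 0.08, with Birc5 and Ndc80 turned to negative values, and leaving out wild type array 3 left 23 and a median of 0.06. Without the pair of wild type arrays that carried Y-linked signal, 27 members and 58.1% of all genes were positive, with medians of 0.16 and 0.04. Mutant and wild type values did not overlap in 8 members (21.1%), against 16.1% of all genes. In 7 of these (18.4% of members) the mutant arrays were higher (Nek6, Hmmr, Aurkb, Ttk, Plk1, Ccna2 and Ube2c), against 8.08% of all genes. In Ckap2 (2.63%) they were lower, against 7.98%. Shares of separate groups were not computed over the brighter 50% of genes.

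Among the mitotic kinases, Nek6 is a NIMA-related kinase that acts below Nek9 and phosphorylates the kinesin encoded by Kif11 during spindle formation. Its log2 signal was 9.39, 9.96 and 9.58 on the wild type arrays and 11.20, 11.20 and 11.08 on the mutant arrays. The 3 mutant values lay within 0.12 of one another and at least 1.13 above the highest wild type value. The means were 9.64 ± 0.29 and 11.16 ± 0.07 (SD, n = 3 each), a 2.86-fold rise with a log2 fold change of 1.51 ± 0.18 (SE) and a limma adjusted p of 0.043. Against wild type array 1 alone, which like the mutants lacked Y-linked signal, the mutant mean was higher by 1.76 on the log2 scale.

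Both other Nek6 probe sets gave separate groups in the same direction. The second had log2 signals of 7.90, 7.32 and 7.67 on wild type and 8.69, 9.03 and 9.24 on mutant arrays, a log2 fold change of 1.36 ± 0.22 (SE). The third ranged from 6.43 to 7.01 on wild type and from 7.56 to 7.998 on mutant arrays, a log2 fold change of 0.97 ± 0.22 (SE). With each probe set tested by itself the limma adjusted p was 0.087, 0.152 and 0.259 for the 3 probe sets, so none passed there. The adjusted p at the brightest probe set was close to the threshold, and the call was lost without any 1 of wild type arrays 1 and 3 and mutant arrays 1, 2 and 3 (adjusted p from 0.070 to 0.179), with a log2 fold change of 1.39 to 1.67 over the 6 such fits.

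Summed marker signals of several cell types also differed between the groups, some higher and some lower in mutants. Their part in the rise of Nek6 was not tested. Summed signal of the 10 measured mast cell and basophil markers was 2321 to 2965 on wild type and 5916 to 9094 on mutant arrays, in linear intensity units. That of 12 macrophage and dendritic cell markers was 2746 to 4300 against 7247 to 16256, with Adgre1 under the lower quartile of every array. That of 13 granulocyte and monocyte markers was 28271 to 36494 against 13335 to 16521, and that of 9 sort gate and stem cell markers was 19655 to 21462 against 15157 to 16043. Megakaryocyte markers (7 measured, 6732 to 7258 against 5338 to 6519, with Ppbp under the lower quartile) did not overlap either. A sum follows its brightest genes, and these disagreed within some lists but not in others. Log2 fold changes were -1.73 for Pf4, 0.72 for Itgb3 and 0.0077 for Itga2b of the megakaryocyte list. In the granulocyte and monocyte list they were -2.87 for S100a9, -3.13 for S100a8 and 0.16 for Mpo. The brightest of the mast cell list were all positive, with 0.77 for Cpa3, 2.77 for Ms4a2 and 1.84 for Mcpt8. So were those of the macrophage and dendritic cell list, with 0.83 for H2-Ab1, 2.13 for H2-Aa and 1.90 for Cd74. Erythroid markers (7 measured, 1674 to 4584 against 2659 to 6166) and lymphoid markers with Flt3 (13 measured, 2319 to 5169 against 1859 to 3653, with Ms4a1, Ncr1 and Rag1 under the lower quartile) overlapped between the groups. By limma Gzmb of the mast cell list rose, and Camp of the granulocyte list and Tek of the stem cell list fell, with 0 called in the other lists.

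**Figure D2:**
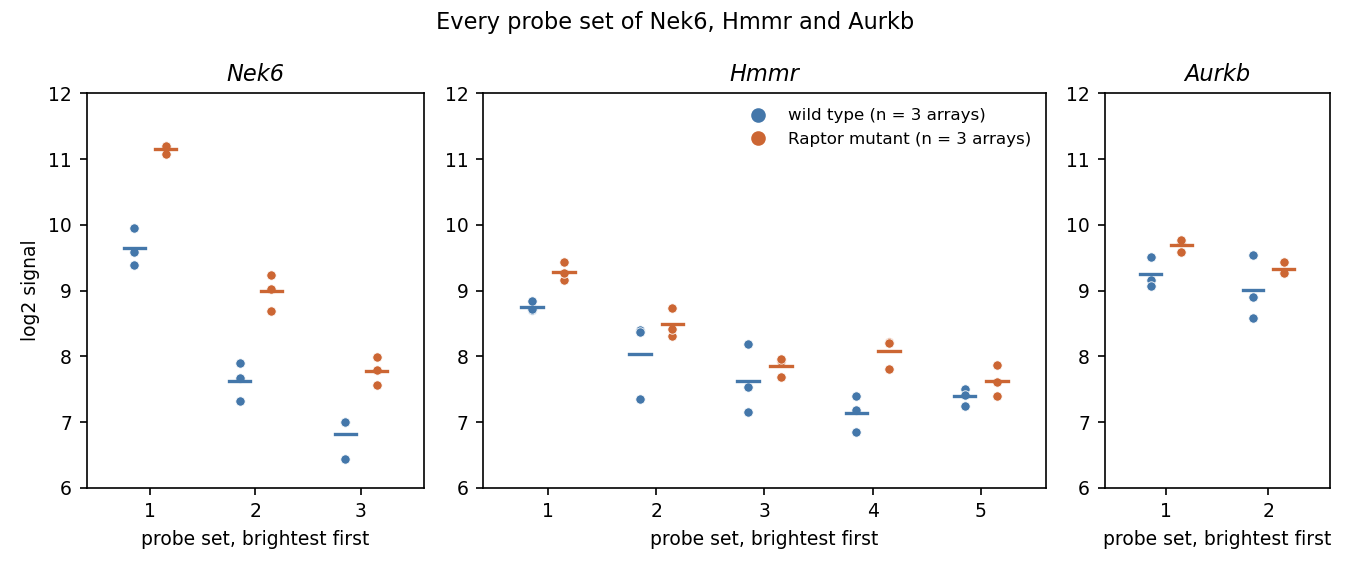
Log2 signal of every probe set of Nek6, Hmmr and Aurkb, with a point for each array, a bar for the mean of 3 arrays, wild type in blue and mutant in orange. The groups are apart in all 3 Nek6 probe sets, in 2 of 5 Hmmr probe sets and in 1 of 2 Aurkb probe sets.

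None of the other 8 measured NIMA-related kinases was called by limma, and 0 had an unadjusted p under 0.05. Of these relatives of Nek6, 2 had a positive and 6 a negative log2 fold change, with a median of -0.10. Nek9, the kinase that activates Nek6, stood at 11.15, 10.61 and 11.04 on wild type and 10.97, 10.84 and 11.13 on mutant arrays, with a log2 fold change of 0.05 ± 0.19 (SE). Nek4 had the highest value of the family after Nek6, 0.48 ± 0.22 (SE, limma adjusted p = 0.515), and Nek11 the lowest, -0.30. Kif11 was measured by 3 probe sets, with log2 fold changes of 0.20, 0.13 and 0.10.

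The Aurora kinases differed in how their values were spread. Aurkb, the catalytic subunit of the chromosomal passenger complex, stood at 9.51, 9.16 and 9.08 on wild type and 9.58, 9.74 and 9.77 on mutant arrays. Its groups were apart by 0.07, between wild type array 1 and mutant array 1. This gave a log2 fold change of 0.45 ± 0.17 (SE, limma adjusted p = 0.46), and the groups of its second probe set overlapped. Aurka, which matures centrosomes, stood at 8.88, 9.40 and 8.25 on wild type and between 9.07 and 9.16 on mutant arrays. Here the wild type arrays spread over 1.14 and the mutants over 0.09, and the log2 fold change went from 0.28 ± 0.28 (SE) to -0.02 without wild type array 3.

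Plk1, the Polo kinase of mitotic entry, stood at 8.06, 8.23 and 8.01 on wild type and 8.25, 8.24 and 8.50 on mutant arrays, a log2 fold change of 0.23 ± 0.16 (SE). The spindle checkpoint kinase Ttk stood at 9.02, 9.25 and 9.16 against 9.26, 9.32 and 9.88. In both genes the groups were separate by 0.01 or less, which is less than the spread within either group, and 1 mutant array, the third, stood above the rest. Bub1b, a checkpoint pseudokinase, had a log2 fold change of 0.33 ± 0.18 (SE), with 0.52 (groups apart) and -0.12 in its other probe sets, and Melk had one of 0.28 ± 0.18. Bub1, which marks centromeres for the passenger complex, was the only one of the 8 kinases with a negative value, -0.11 ± 0.17, and its second probe set gave 0.16.

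Of 6 measured genes in the group of cyclins, Cdk1, its activating phosphatases and Foxm1, 0 were called by limma. Among them 3 had a positive and 3 a negative log2 fold change. Cdk1 stood at 10.24, 10.79 and 10.59 on wild type and 10.62, 11.01 and 10.62 on mutant arrays, with a log2 fold change of 0.21 ± 0.20 (SE) and a 95% interval from -0.26 to 0.68. Its value was 0.51 without the wild type arrays that carried Y-linked signal and 0.06 without wild type array 1. Ccna2, cyclin A2, varied little, at 11.48, 11.44 and 11.57 against 11.57, 11.67 and 11.59. Its groups were separate by under 0.01, and the 95% interval of its log2 fold change of 0.12 ran from -0.22 to 0.45. Ccnb2, cyclin B2, had a log2 fold change of -0.04 ± 0.24 (SE).

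Cdc25c, a phosphatase that activates Cdk1, had the widest range among wild type arrays of all members. It stood at 8.79, 10.06 and 8.55 on wild type and 9.05, 9.86 and 9.09 on mutant arrays. The high values were those of wild type array 2 and mutant array 2, so the groups overlapped throughout, and its log2 fold change of 0.20 ± 0.41 (SE) had a 95% interval from -0.76 to 1.16. Its second probe set was also highest on the same pair of arrays, at 8.37 and 8.14, with the other arrays at 6.95 to 7.81. Cdc25b, a phosphatase of the same family, had a log2 fold change of -0.10 ± 0.23 and Foxm1, the transcription factor of this programme, one of -0.13 ± 0.28 (SE). All 4 Foxm1 probe sets gave a value between -0.13 and -0.09.

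Partners of the anaphase-promoting complex came next. Its activator Cdc20 stood at 9.96, 10.33 and 10.10 on wild type and 10.45, 10.29 and 10.79 on mutant arrays, a log2 fold change of 0.38 ± 0.19 (SE, limma adjusted p = 0.56). Its 3 probe sets gave values from 0.02 to 0.38. Ube2c, the ubiquitin-conjugating enzyme of the complex, stood at 10.75, 10.76 and 10.92 against 10.99, 11.07 and 10.95. The groups were 0.03 apart, and the log2 fold change was 0.19 ± 0.15 (SE).

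Neither of 2 markers of proliferation in wide use was called by limma. Mki67, which encodes the Ki-67 protein of the mitotic chromosome surface, stood at 13.39, 13.57 and 13.43 on wild type and 13.40, 13.39 and 13.48 on mutant arrays. Its range over the 6 arrays, 0.18, was the narrowest of the 38 members, and the 95% interval of its log2 fold change of -0.04 ran from -0.38 to 0.30. Mki67 was brighter than 99.6% of all genes, and whether the arrays resolve differences at that level was not tested. Top2a, topoisomerase II alpha, stood at 11.16, 11.17 and 11.05 against 11.34, 11.29 and 11.06, a log2 fold change of 0.10 ± 0.15 (SE), while its pair of dimmer probe sets gave -0.33 and -0.24.

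Among genes of the centromere, kinetochore and passenger complex, 5 of 6 had a positive log2 fold change, with a median of 0.07 and 0 called. Cenpe, a kinetochore motor, had the highest, 0.21 ± 0.23 (SE), and the centromeric histone variant gene Cenpa the lowest, -0.13 ± 0.17. All 3 Cenpa probe sets were negative, down to -0.60 in the dimmest, and the groups of 1 of them did not overlap. Ndc80 and Nuf2, which together form the microtubule-binding end of the kinetochore, had values of 0.02 and 0.17. Cenpf (0.10) and Birc5 (0.05), which encodes survivin of the passenger complex, had smaller values than Cenpe, and these rested on the choice of arrays: without those with Y-linked signal they were 0.34 and 0.42.

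The 6 kinesins had log2 fold changes from -0.17 to 0.20 and a median of 0.06. Kif11, the motor that pushes spindle poles apart, stood at 11.28, 11.32 and 11.59 on wild type and 11.70, 11.43 and 11.66 on mutant arrays. Kif23, a motor of the central spindle, had the lowest value, and its 3 probe sets disagreed, with log2 fold changes of -0.17 and -0.36 in the brighter pair and a positive value in the dimmest, which ranged from 4.99 to 6.25 on wild type and from 6.52 to 6.998 on mutant arrays. Kif2c, a microtubule depolymerase, likewise gave 0.15 in its brightest and 0.98 in its dimmest probe set. In both of these dimmest probe sets the groups did not overlap. Kif20a, Kif20b and the X-linked Kif4 had values of 0.07, 0.05 and -0.10.

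Hmmr, which binds hyaluronan at the cell surface and microtubules at the spindle pole, had the highest log2 fold change after Nek6. It stood at 8.71, 8.72 and 8.84 on wild type and 9.17, 9.44 and 9.27 on mutant arrays. Every mutant array lay at least 0.33 above every wild type array. The log2 fold change was 0.54 ± 0.15 (SE), a ratio of 1.45, with an unadjusted p of 0.0085 and a limma adjusted p of 0.30, so it did not pass. All 5 Hmmr probe sets had positive values, from 0.23 to 0.94, with groups apart in 2 of them.

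Other spindle proteins went both ways. Tpx2, the activator of Aurora A on microtubules, stood at 10.08, 9.43 and 10.37 on wild type and 10.59, 10.62 and 10.06 on mutant arrays, a log2 fold change of 0.46 ± 0.28 (SE). It was 0.20 without wild type array 2 and 0.67 without wild type array 3. The second Tpx2 probe set gave 0.50, while the mean of its probe sets gave 0.20. That mean includes a dim pair, with mean log2 signals of 4.44 and 4.23 and log2 fold changes of -0.14 and -0.02. Ckap2, a microtubule-binding protein, stood at 9.08, 9.06 and 9.25 against 8.84, 8.88 and 8.55, a log2 fold change of -0.38 ± 0.16 (SE, limma adjusted p = 0.50). Its mutant arrays were all lower, by at least 0.19. Nusap1, which bundles spindle microtubules, had a log2 fold change of -0.32 ± 0.22, and its second probe set one of -0.44 with groups apart. Dlgap5 had a value of 0.14 and Prc1, which crosslinks the central spindle, one of -0.05. Of the cytokinesis genes, Anln, the anillin of the contractile ring, had a log2 fold change of 0.35 ± 0.27, with wild type array 3 low at 7.87 and the other 5 arrays at 8.56 to 9.06. Racgap1, of the centralspindlin complex, had one of -0.16 ± 0.25, and its second probe set gave 0.35.

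**Figure D3:**
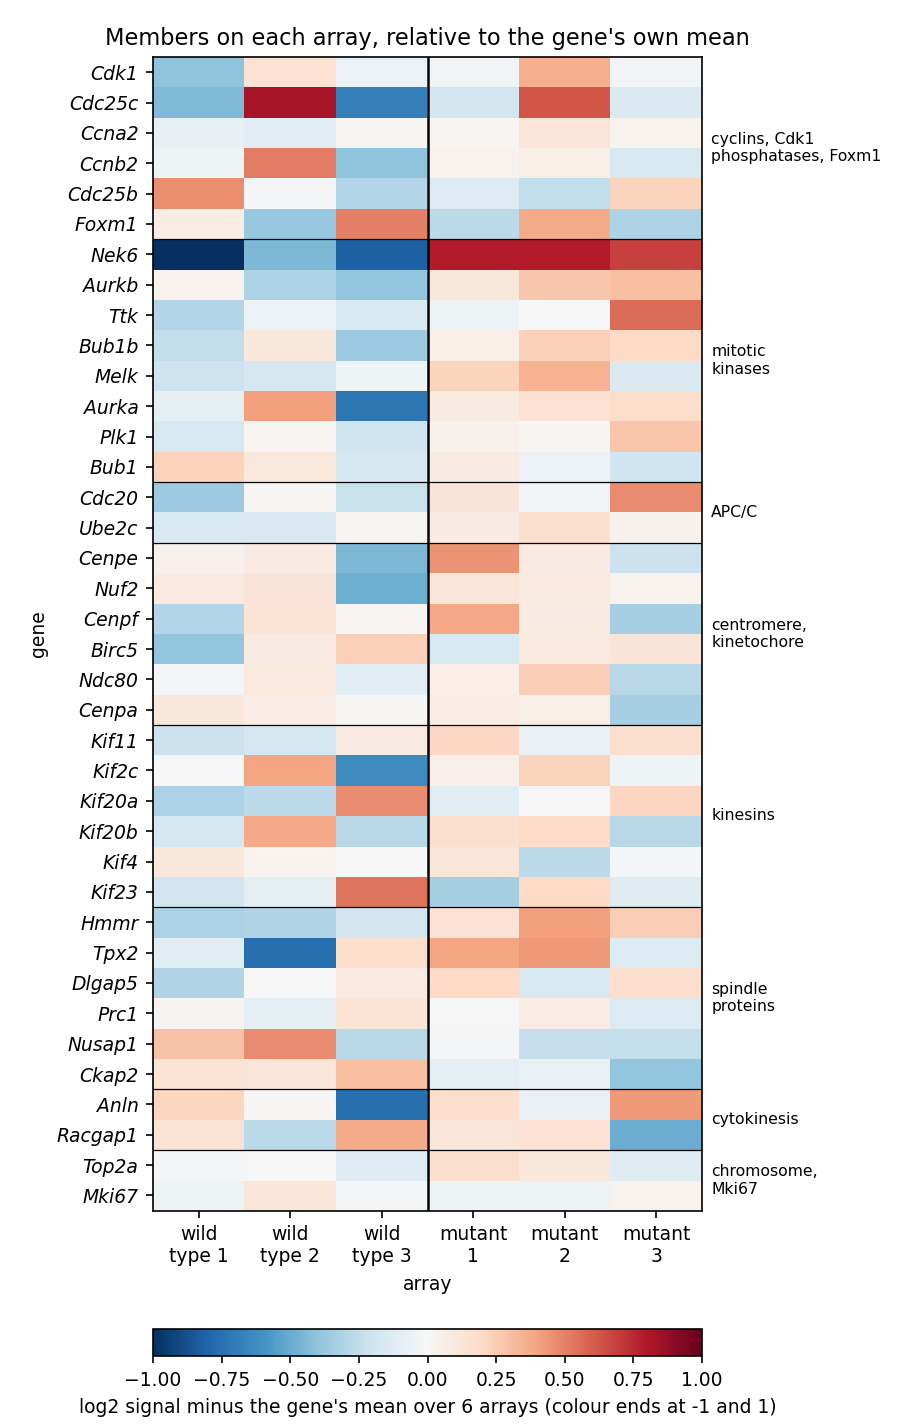
Log2 signal of each of the 38 members on each array minus that gene's mean over the 6 arrays, grouped by role, with the 3 wild type arrays left of the line and the 3 mutant arrays right of it. Nek6 is low on all wild type and high on all mutant arrays, while wild type arrays 2 and 3 depart in opposite directions for Ccnb2, Cdc25c, Aurka and Kif2c.

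On the scale of each gene's own mean, the median member lay at -0.09 (wild type array 1), 0.02 (array 2) and -0.12 (array 3) in controls, and at 0.08, 0.10 and -0.02 in mutants 1, 2 and 3. On this scale wild type array 2 lay above mutant array 3, and the groups overlapped. The median over all genes also differed between arrays, at -0.08, 0.06 and 0.08 on the wild type and -0.06, -0.0091 and -0.03 on the mutant arrays. Relative to it the members lay at -0.01, -0.05 and -0.19 on the wild type and at 0.13, 0.11 and 0.0096 on the mutant arrays. Here the groups did not overlap, but wild type array 1 (-0.01) and mutant array 3 (0.0096) lay close together. These are medians with no test, and the baseline was not matched for brightness. All members were among the brighter 50% of genes, whose median log2 fold change was 0.06, against -0.07 over all genes. The highest value of a member fell on a mutant array in 20 genes and on a wild type array in 18, while the lowest fell on a wild type array in 29 and on a mutant array in 9. Wild type array 3 was the lowest for 14 members and wild type array 1 for 12. These extremes were not counted over all genes, so they are not shown to be particular to the members. Over all genes the wild type SD was the larger in 75.8%. The mutant mean was above wild type array 1 in 27 members (71.1%, against 58.1% of all genes), above wild type array 2 in 21 (55.3% against 40.2%) and above wild type array 3 in 27 (71.1% against 40.0%).

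Departures of over 0.3 from a gene's mean were found on every array. Wild type array 3 lay over 0.3 below the gene's mean in 10 members, among them Aurka, Anln, Kif2c, Nuf2, Ccnb2 and Cdc25c, and over 0.3 above it in 5, namely Kif20a, Kif23, Racgap1, Ckap2 and Foxm1. Wild type array 1 was that far above the mean in 1 member and below it in 8, mutant array 1 in 4 and 1, mutant array 2 in 7 and 0, and mutant array 3 in 5 and 5. Wild type array 2 was over 0.3 below the mean in 5 members and above it in 6, of which Ccnb2, Cdc25c, Aurka and Kif2c were among those low on wild type array 3. A member's SD had a median of 0.24 over the wild type arrays and of 0.17 over the mutant ones, with the wild type SD larger in 25 of 38 members. Over all genes the medians were 0.29 and 0.16, and the wild type SD was larger in 75.8%.

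Probe sets naming a single member numbered 83. Of the 25 members with several, 11 had positive log2 fold changes in every probe set, 4 had negative values in every one (Cenpa, Foxm1, Nusap1 and Prc1) and 10 had both signs. With each probe set tested by itself 0 of the 83 passed by limma at an adjusted p under 0.05, against 0.0343% of all 34945 probe sets. An unadjusted p under 0.05 was found in 9 (10.8%), against 9.39% of all probe sets, of which 3 were those of Nek6 and 2 those of Hmmr.

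Of other genes of mitosis, a list of 85 with 83 measured, 0 were called by limma and 4 (4.82%) had an unadjusted p under 0.05, against 10.0% of all genes. Positive log2 fold changes were found in 48 (57.8%) and negative ones in 35, with a median of 0.03, so both values were lower than in the members and near those of the brighter 50% of genes (58.5% and 0.06). Groups did not overlap in 10 (12.0%, against 16.1% of all genes), with mutant arrays higher in 8 and lower in 2. Kif15, a kinesin that can stand in for Kif11, had the highest value, 0.84 ± 0.21 (SE, limma adjusted p = 0.24), at 7.21, 7.41 and 6.95 on wild type and 7.99, 7.74 and 8.35 on mutant arrays. The kinetochore gene Cenpi had 0.77 ± 0.24 and the condensin gene Smc2 0.33 ± 0.15. Ensa, an inhibitor of the phosphatase PP2A in mitosis, had -0.70 ± 0.17 (SE, limma adjusted p = 0.23), at 11.61 or above on every wild type array and between 11.03 and 11.25 on mutant arrays. Iqgap3 had -1.14 ± 0.39 and Pttg1, the securin gene, -0.43 ± 0.23.

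Regulators of the programme and genes of the preceding phase were read from lists of their own. Of 17 DREAM, MuvB and NF-Y genes, 5 had positive and 12 negative values, with a median of -0.07, and 0 were called (0 at an unadjusted p under 0.05). The MuvB subunit gene Lin54 had 0.37 ± 0.18, Lin9 had 0.43 ± 0.31, Mybl2, which encodes B-Myb, had 0.35 ± 0.33 and Lin52 had -0.74 ± 0.42 (SE). Of 48 measured genes of DNA replication and the G1/S step, 33 (68.8%) had positive values, with a median of 0.12. Over all genes these were 40.4% and -0.07, and over the brighter 50% of genes 58.5% and 0.06. The list was bright, with a median log2 signal of 10.8 against 7.55 over all genes. Groups were apart with mutant arrays higher in 10 (20.8%, against 8.08% of all genes) and lower in 0 (against 7.98%), shares not matched for brightness. By limma 0 were called, and 4 (8.33%) had an unadjusted p under 0.05, against 10.0% of all genes. The highest was Cdca7, with 0.62 ± 0.16 (SE, limma adjusted p = 0.24), and Tk1, thymidine kinase, had 0.48 ± 0.17.

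**Figure D4:**
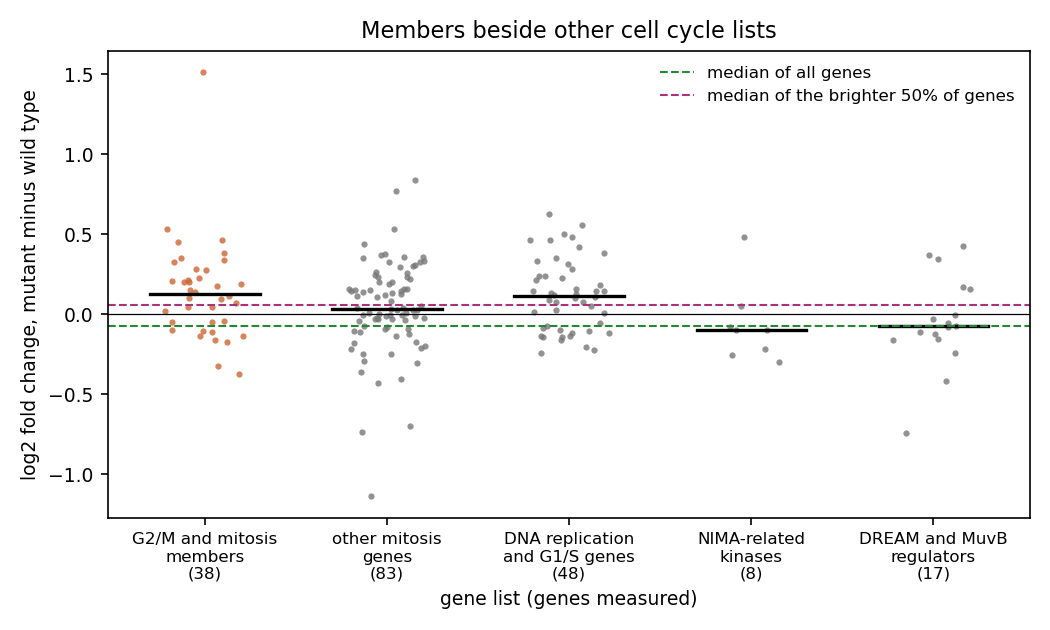
Log2 fold change, mutant minus wild type, of the 38 members and of 4 other cell cycle lists, with a point for each gene, a black bar for the list's median, and dashed lines for the median over all genes (-0.07) and over the brighter 50% (0.06). Medians run from -0.10 for the NIMA-related kinases to 0.13 for the members, and Nek6 is the only point above 1.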

How the data were processed

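Sorted cells gave total RNA that went through PicoPure isolation, Ovation Pico amplification and biotinylation, per the labels' protocols. For every array the authors deposited a linear intensity per probe set from RMA (named in the submitters' processing notes), while its version, settings and genome build are not stated in the sources at hand. Here log2 was taken of each deposited intensity. Arrays carry no read depth, and their number limits the precision.

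Of 45101 probe sets, 34945 named a single gene in the annotation table (64 were controls, 9160 named none and 932 several), which gave 18193 genes at the brightest probe set of each. Entrez identifiers of 34741 matched GRCm38.p6, used for names and promoter windows. R 4.3.3 and limma 3.58.1 served to fit all genes, with lmFit and eBayes, without covariate or filter on dim genes. The p-values are two-sided, with Benjamini-Hochberg adjustment over all genes. The procedure was tested on simulated data with noise independent between genes and arrays. The planted changes were larger than those of most members, so that test does not show how often changes of their size are called. Errors are SD of arrays or SE of limma. The members, the lists and the tests were chosen with earlier results of these data known. Every member may be named, and of other lists any gene called or up to 3 per direction with the smallest p. Alternatives were the replicate block, median centring, quantile normalization, other uses of probe sets, filters, trend and robust fitting, array weights, Y-linked signal as a covariate or a reason to leave arrays out, a looser threshold and leaving out each array. A planned search for motifs in the members' proteins was not run, since protein sequences were not used here.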

Additional observations from a re-analysis of the deposited data

How the results depend on the processing

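The members' median log2 fold change stayed positive under all alternatives run, from 0.06 without wild type array 3 to 0.18 without wild type array 2 among fits that leave out 1 array, and the number of positive members stayed between 23 and 29. Nek6 kept its direction throughout, with limma adjusted p from 0.0088 (trend and robust fitting) to 0.27 (Y-linked covariate), and the cause of each lost call was not tested. The members called numbered 0 after quantile normalization again, with array weights, with the Y-linked covariate, without the arrays with Y-linked signal, with each probe set tested by itself and with the replicate block, and 0 to 1 when leaving out 1 array. All genes called, 20 as reported, numbered 40 with trend and robust fitting, 8 with array weights, 0 with the Y-linked covariate (limma, 1149 at an unadjusted p under 0.05), 0 without the arrays with Y-linked signal (1729), 49 at an adjusted p under 0.10, 10 with each probe set tested by itself, and 5 (without wild type array 3) to 31 (without wild type array 1) when leaving out 1 array, with 10 without mutant array 1 and 9 without mutant array 3.

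With the replicate number as a block 10 genes were called in all, and Nek6 had an adjusted p of 0.115 by limma. Same-numbered arrays had deviations from their group means that correlated at 0.184, -0.026 and 0.063 over genes. The first of these was the highest of all pairs of a wild type and a mutant array, while wild type array 2 correlated best with mutant array 3 (0.038). The labels give a shared number only, and these correlations cannot settle whether same-numbered arrays were paired.

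None of the members that changed sign was called by limma under any alternative run. With the mean of probe sets, Bub1 was at 0.026, Kif23 at 0.16, Racgap1 at 0.036 and Top2a at -0.15. After quantile normalization Birc5 was at -0.0073 and Ndc80 at -0.037, and with array weights Kif20b was at -0.022. With the Y-linked covariate Ccnb2 was at 0.059, Kif23 at 0.067 and Mki67 at 0.037. Without the arrays with Y-linked signal Anln was at -0.037, Ccnb2 at 0.024, Kif23 at 0.11, Mki67 at 0.034 and Nuf2 at -0.0094. Leaving out 1 array gave ranges of -0.019 to 0.55 for Aurka, -0.14 to 0.18 for Birc5, -0.26 to 0.20 for Ccnb2, -0.27 to 0.11 for Cdc25b, -0.092 to 0.66 for Cdc25c, -0.20 to 0.00095 for Cenpa, -0.074 to 0.29 for Cenpf, -0.36 to 0.085 for Foxm1, -0.071 to 0.32 for Kif20a, -0.080 to 0.25 for Kif20b, -0.31 to 0.053 for Kif23, -0.12 to 0.39 for Kif2c, -0.19 to 0.0018 for Kif4, -0.076 to 0.013 for Mki67, -0.10 to 0.17 for Ndc80, -0.025 to 0.28 for Nuf2, -0.11 to 0.013 for Prc1 and -0.34 to 0.050 for Racgap1. No detection calls were used, so values of dim probe sets have no measured floor.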
